A study of Mus musculus with 6 samples.

Results

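The constitutive proteasome subunits are the proteins that build the standard protein-degrading particle of the cell. Their transcripts were followed here in libraries labelled as mouse tumour neutrophils. The members were taken by symbol: protein-coding genes whose GENCODE M21 name is Psma, Psmb, Psmc or Psmd followed by a digit, without the interferon-induced subunits Psmb8, Psmb9 and Psmb10. The rule took 37 of the 21959 genes in the deposited table. It also took 3 assembly chaperones, Psmd5, Psmd9 and Psmd10, and Psmc3ip, a meiotic recombination protein that is no proteasome subunit. By its labels, the study measured RNA of neutrophils from mouse models of Hepa1-6, a mouse hepatoma cell line. It held 3 libraries labelled GPR35-positive and 3 labelled GPR35-negative. GPR35 is a G protein-coupled receptor. The sources used here give no strain, age, treatment or way of sorting the cells. The labels do not tell whether each replicate was its own animal. The p-values therefore reflect the spread among these libraries alone, and that spread may be technical.

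The libraries held 15742748 to 18314112 reads assigned to genes. The labelled cell type was checked against fixed marker lists. Mature neutrophil markers summed to 9198 to 10153 FPKM (fragments per kilobase of exon, relative to the total reads of each library) in GPR35-positive libraries and 864 to 1108 FPKM in GPR35-negative libraries, with 14 of 16 higher. Hepatocyte and hepatoma markers summed to 17133 to 17568 FPKM in GPR35-positive and 25635 to 27069 FPKM in GPR35-negative libraries, with 15 of 16 lower. Most of that sum came from Trf, Krt18 and Krt8, with means of 7130, 4224 and 3604 FPKM in GPR35-positive libraries. Alb and Afp had means of 605 and 450 FPKM there. Transcripts of another cell type were thus abundant in all 6 libraries. Macrophage and monocyte markers summed to 947 to 980.04 FPKM in GPR35-positive and 38.5 to 52.6 FPKM in GPR35-negative libraries, with 11 of 11 tested higher. T and NK cell markers summed to 31.5 to 33.6 FPKM in GPR35-positive and 32.7 to 43.3 FPKM in GPR35-negative libraries, with 0 of 4 tested passing. B cell markers stayed at or below 1.14 FPKM in sum, and pan-leukocyte markers summed to 647 to 680.4 FPKM in GPR35-positive and 66.9 to 96.6 FPKM in GPR35-negative libraries, with 6 of 6 higher. Endothelial markers summed to 4.19 to 5.04 FPKM in GPR35-positive and 2.89 to 3.65 FPKM in GPR35-negative libraries, and fibroblast markers to 13.1 to 18.4 FPKM and 8.44 to 11.8 FPKM in those groups. The endothelial marker Cdh5 was listed at 0 in all 3 GPR35-negative libraries. The neutrophil, macrophage and hepatoma sums differed between the same groups that every fold change below compares. Their part in the results was not tested, and in such bulk samples fewer cells of a type and less RNA per cell cannot be told apart.

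The proteasome degrades proteins tagged with ubiquitin. Its 20S core is a barrel of stacked rings: the outer alpha rings gate the entry, and the inner beta rings carry the cutting sites. The 19S cap sits on the barrel; its base holds a ring of ATPases that unfold the substrate and pull it in, and its lid holds the enzyme that takes the ubiquitin off. When proteasome activity is short, the transcription factor NRF1, encoded by Nfe2l1, raises the subunit genes together in mammalian cells. Neutrophils and other immune cells can swap the 3 constitutive cutting subunits for the inducible ones of the immunoproteasome.

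Since NRF1 reads short elements before the subunit genes, 250 bases before the annotated start are shown for 5 of the members. These are the single member that rose, the alpha subunit with the lowest fold change, the cutting subunits Psmb5 and Psmb6, and the ubiquitin receptor Psmd4. Their motif matches do not stand for the members as a whole, whose counts follow. The bases are RefSeq sequences in GRCm38.p6, written 5′ to 3′ on the gene's strand. Capitals mark TGACNNNGC, the core of elements read by NRF1 and its relative NRF2, and CCGGAA, the core of ETS family elements, each on either strand.
Psma3, chr12:70974373-70974622, forward strand: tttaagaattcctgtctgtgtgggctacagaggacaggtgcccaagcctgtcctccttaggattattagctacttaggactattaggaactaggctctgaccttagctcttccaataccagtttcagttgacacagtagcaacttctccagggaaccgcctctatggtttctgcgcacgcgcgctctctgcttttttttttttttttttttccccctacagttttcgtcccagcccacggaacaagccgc
Psma7, chr2:180042465-180042714, reverse strand: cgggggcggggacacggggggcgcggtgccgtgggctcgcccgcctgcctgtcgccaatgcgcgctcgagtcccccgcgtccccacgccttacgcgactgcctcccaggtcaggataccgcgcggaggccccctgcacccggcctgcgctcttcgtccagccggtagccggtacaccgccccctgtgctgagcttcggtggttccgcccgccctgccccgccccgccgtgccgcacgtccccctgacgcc
Psmb5, chr14:54617996-54618245, reverse strand: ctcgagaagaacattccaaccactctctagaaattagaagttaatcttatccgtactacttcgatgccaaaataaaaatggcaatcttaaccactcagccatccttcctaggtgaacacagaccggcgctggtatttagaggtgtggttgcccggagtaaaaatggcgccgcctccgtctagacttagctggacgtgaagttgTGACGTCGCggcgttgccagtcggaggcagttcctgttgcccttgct
Psmb6, chr11:70525107-70525356, forward strand: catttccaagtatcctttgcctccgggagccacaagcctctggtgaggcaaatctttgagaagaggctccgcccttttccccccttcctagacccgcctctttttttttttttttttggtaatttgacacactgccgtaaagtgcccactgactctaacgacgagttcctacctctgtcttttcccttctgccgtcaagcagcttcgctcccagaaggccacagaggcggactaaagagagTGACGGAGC
Psmd4, chr3:95042615-95042864, reverse strand: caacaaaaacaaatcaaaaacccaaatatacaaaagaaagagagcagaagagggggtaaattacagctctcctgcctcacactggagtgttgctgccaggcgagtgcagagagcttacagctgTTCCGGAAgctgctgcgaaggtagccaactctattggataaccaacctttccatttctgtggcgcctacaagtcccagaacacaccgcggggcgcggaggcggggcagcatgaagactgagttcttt
Of the 37 members, 30 matched an entry; Psma8, Psmb1, Psmb2, Psmb7, Psmc3, Psmd3 and Psmd7 did not. TGACNNNGC was found before Psmb5, Psmb6, Psmc6, Psmd9 and Psmd12, 16.7% of the 30, against 11.5% of 27025 genes with an entry and 14.1% of the 7984 of these that were tested. In Psmb5 it begins 47 bases before the start, as TGACGTCGC, and in Psmb6 9 bases before it, as TGACGGAGC. CCGGAA was found before 14 of the 30 (46.7%), against 13.6% of all promoters and 26.8% of those of tested genes; before Psmd4 both strands match in an overlap. Among other motifs, CCAAT stood before 43.3% of the 30, against 37.5% and 40.6%, and GGGCGG before 56.7%, against 35.4% and 64.2%. The core of elements of the nuclear respiratory factor type, a factor other than the product of Nfe2l1, stood before 20% of the 30, against 4.23% and 9.77%. These are matches of letters in both strands and not shown binding sites.

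Subunit transcripts differed little between the groups, and mostly in the direction in which the median of all genes lay, lower in GPR35-positive libraries. Of the 37 members, 35 reached 1 FPKM in at least 3 libraries and were tested, by limma with Benjamini-Hochberg adjustment over 10060 genes, two-sided at 0.05. Among them 18 fell, 1 rose and 16 did not pass. Over all genes tested 45.5% fell and 23.3% rose, so the share of members that fell is near the background and is no result about the members. The same shares are the background for the counts of each smaller list below. The median log2 fold change was −0.20 over the members and −0.19 over all genes tested; log2 fold changes were computed from log2(FPKM + 1), where the 1 added shrinks the change of genes at low levels. Between its quartiles the fold change of members ran from −0.30 to −0.11, against −0.39 to 0.18 for all genes. Over the 5196 genes inside the level range of the members, the median was −0.25 and the quartiles −0.43 and 0.096. The groups did not overlap, with GPR35-positive below, for 21 members, against 48.2% of all genes, and with GPR35-positive above for 1, against 24.3%. Summed over the 37 members, the level was 2972 ± 185 FPKM in GPR35-positive and 3387 ± 103 FPKM in GPR35-negative libraries (SD, n = 3 each), a ratio of 0.878.

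The scaling between libraries bears on each of these signs. Median-of-ratios scaling, which divides by the typical ratio between libraries, moved the median of all genes by 0.117, to −0.07, and changed the split of calls over all genes to 2731 higher and 3036 lower, against 2342 higher and 4575 lower in the deposited scaling. The members' median then was −0.06, 8 fell and 3 rose, against 30.2% lower and 27.1% higher over all genes. The 8 are Psma7, Psmd3, Psmd4, Psmd5, Psmd6, Psmd7, Psmd9 and Psmd13. They fell in all 12 alternatives run, a count for which the share over all genes is not given. The 3 are Psma3, Psmb6 and Psmc1. That scaling raised the log2 fold change of each of the 35 members by 0.123 to 0.142, so calls named below as falls are smaller under it and rises larger. Under it 14 members had a fold change above 0 and 21 below, against 3 above and 32 below in the deposited scaling. Relative to the median of all genes, 16 members stood above and 19 below.

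**Figure D1:**
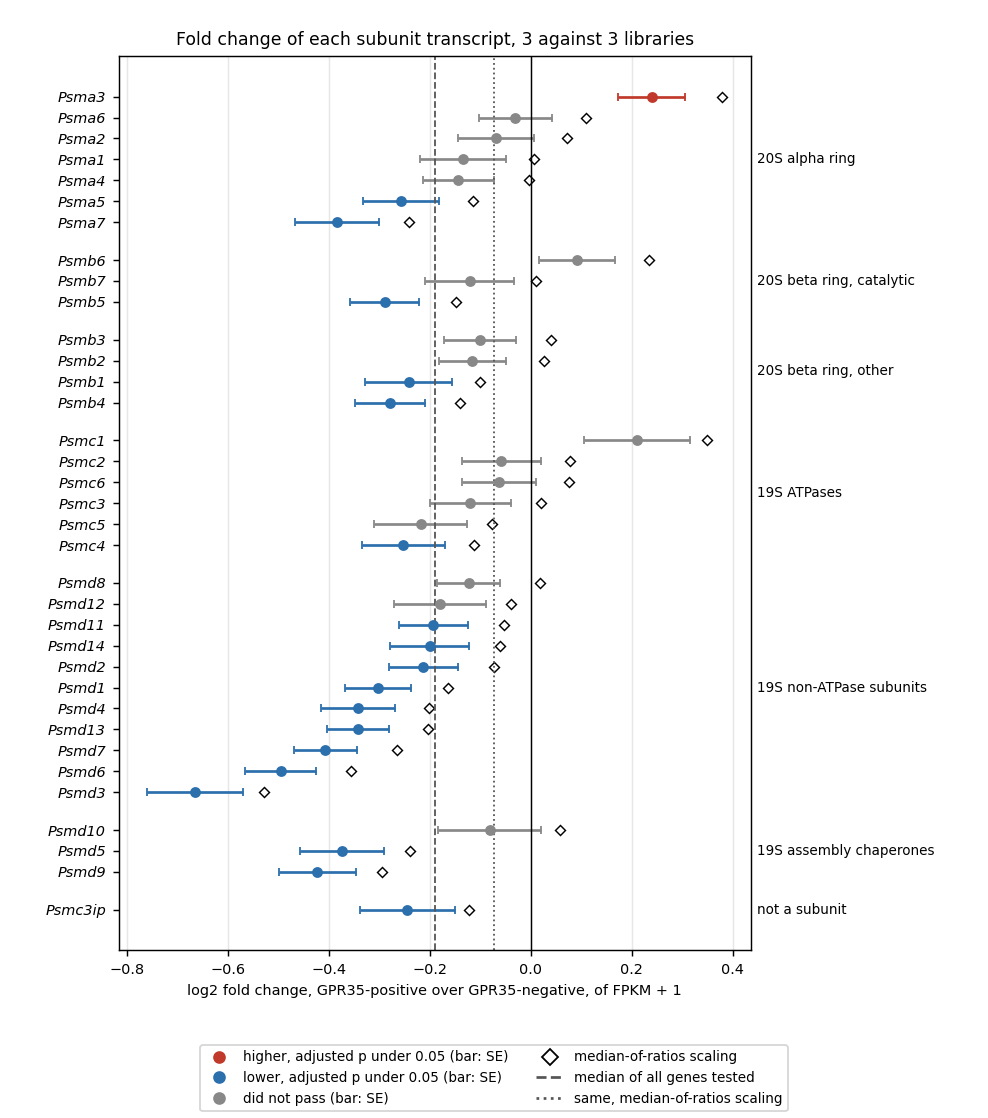
Log2 fold change of FPKM + 1 for each of the 35 tested members (points with SE bars, n = 3 against 3 libraries), grouped by role, with open diamonds for median-of-ratios scaling and lines for the medians of all genes. The lid subunits Psmd3 (−0.66) and Psmd6 (−0.50) lie lowest and Psma3 (0.24) highest.

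The alpha ring held both extremes of the core. Of its 7 tested subunits 2 fell, 1 rose and 4 did not pass, with a median log2 fold change of −0.13. Psma3, the alpha7 subunit, had 70.6, 63.3 and 68.1 FPKM in the GPR35-positive libraries, against 57.1, 56.0 and 57.4 FPKM in the GPR35-negative libraries. Each GPR35-positive library was above each GPR35-negative one. Psma3 averaged 67.4 ± 3.70 FPKM and 56.8 ± 0.760 FPKM in those groups (SD, n = 3 each), and was higher by a log2 fold change of 0.24 (SE 0.067, limma adjusted p = 0.00918). It is ENSMUSG00000060073 on the forward strand of chromosome 12 (chr12:70974621-70996347, GRCm38). The call held in 11 of 12 alternatives, and with a trend on GC content and length removed the fold change was 0.14 with an adjusted p of 0.0526, in a range of 0.00131 to 0.0526. The reads of Psma3 could also be split with 4 near-identical copies, of which 1, Gm609, has a row in the table.

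Psma7, the alpha4 subunit, moved the other way. It had 258, 224 and 254 FPKM in the GPR35-positive libraries, against 312, 299 and 351 FPKM in the GPR35-negative libraries. The groups did not overlap, and the gap between them was wider than the range of the GPR35-positive libraries. Psma7 averaged 245 ± 18.8 FPKM and 320.3 ± 27.0 FPKM in those groups (SD, n = 3 each), and fell by 0.38 on the log2 scale (SE 0.084, limma adjusted p = 0.00240). It lies on the reverse strand of chromosome 2 (chr2:180036374-180042433, GRCm38). Psma5, the alpha5 subunit, fell by 0.26 on the log2 scale, with 172, 145 and 151 FPKM in GPR35-positive and 189.9, 184 and 183 FPKM in GPR35-negative libraries (limma adjusted p = 0.0119). Psma5 did not pass without GPR35-positive replicate 3 (0.0517) or under median-of-ratios scaling (−0.12 and 0.229), in a range of 0.000126 to 0.229 over the alternatives. Psma1, Psma2, Psma4 and Psma6, the other ring members, did not pass, with log2 fold changes of −0.14 to −0.031. Under median-of-ratios scaling these turn positive for Psma1, Psma2 and Psma6. Each of the ring members named here passed as lower with a trend on GC content and length removed (−0.28 to −0.19, limma adjusted p = 0.00171 to 0.0208). Without GPR35-positive replicate 1, Psma4 and Psma1 passed as lower (limma adjusted p = 0.0390 and 0.0495, in ranges of 0.00171 to 0.966 and 0.00822 to 0.949 over the alternatives).

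Psma8, the alpha subunit of the testis proteasome, was below the filter. It had 7, 9 and 7 reads in the GPR35-positive libraries and 1 read in each GPR35-negative library, which is too few for a fold change. Psmb11, the beta subunit known from thymic epithelium, had 4, 0 and 4 reads in the GPR35-positive libraries and 0 in each GPR35-negative library. The tissue-restricted core subunits were thus hardly detected beside their widely expressed relatives.

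Of the 3 cutting subunits 1 fell and 2 did not pass; the difference between them was not tested. Psmb5, which cuts after large hydrophobic residues and is the main target of proteasome inhibitors, had 80.4, 74.9 and 81.1 FPKM in the GPR35-positive libraries, against 101 FPKM, 96.2 FPKM and 92.2 FPKM in the GPR35-negative libraries. The groups did not overlap. Psmb5 averaged 78.8 ± 3.44 FPKM and 96.6 ± 4.54 FPKM in those groups (SD, n = 3 each), and fell by 0.29 on the log2 scale (SE 0.068, limma adjusted p = 0.00363). Under median-of-ratios scaling the fold change was −0.15 and did not pass (adjusted p = 0.0909, in a range of 0.000158 to 0.0909), and a pseudogene, Gm3375, copies 88.5% of its transcript.

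Psmb6, which cuts after acidic residues, was the most abundant member by mean FPKM. It had 319, 279.7 and 296 FPKM in the GPR35-positive libraries, against 298, 266 and 274 FPKM in the GPR35-negative libraries, and the groups overlapped. Its log2 fold change was 0.092 (SE 0.075, limma adjusted p = 0.289), and 0.23 under median-of-ratios scaling, where it passed as higher (adjusted p = 0.0237). With a trend on GC content and length removed it was 0.0022 (limma adjusted p = 0.976). Psmb7, which cuts after basic residues, had 12.3, 10.6 and 12.2 FPKM in the GPR35-positive libraries, against 13.5, 11.8 and 13.1 FPKM in the GPR35-negative libraries. The groups overlapped, and its log2 fold change of −0.12 did not pass (SE 0.087, limma adjusted p = 0.236). It was 0.010 under median-of-ratios scaling. Psmb7 passed as lower with the trend on GC content and length removed (−0.24, limma adjusted p = 0.0176). Summed over the 3, the level was 389 ± 23.2 FPKM in GPR35-positive and 389 ± 21.2 FPKM in GPR35-negative libraries (SD, n = 3 each).

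Subunits that stand in equal numbers in the barrel had unequal transcript levels. Mean FPKM over all libraries differed by 23.6-fold between Psmb6 at 289 and Psmb7 at 12.2, the extremes of the tested core. FPKM depend on the gene length used, here the union of exons, so levels were also divided by the longest coding transcript. On that scale Psma7 led with 751, followed by Psmb6 with 677 and far above Psmb7 with 36.1, all in FPKM recomputed for that transcript's length.

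**Figure D2:**
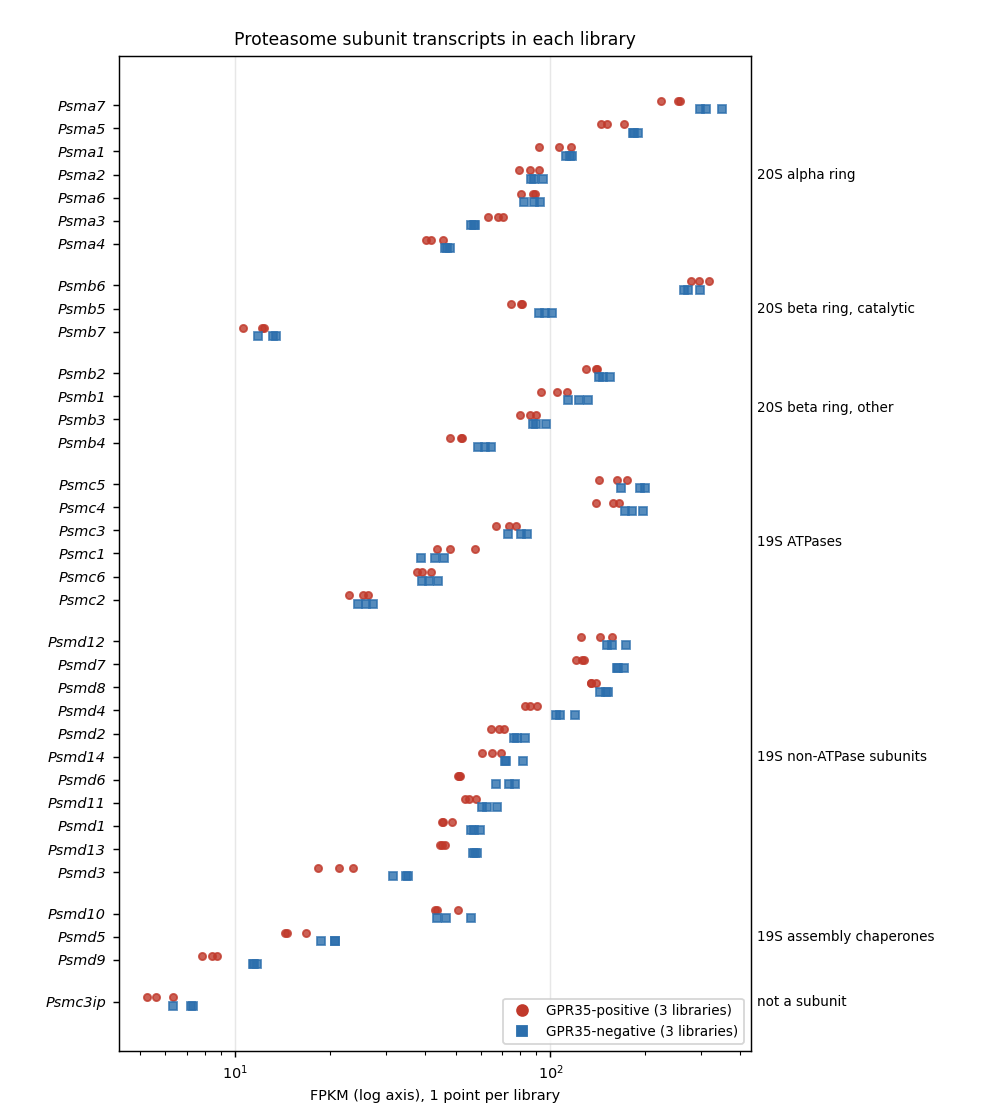
FPKM of each of the 35 tested members (log axis), 1 point per library, GPR35-positive libraries as circles and GPR35-negative libraries as squares, grouped by role. Psmb6 (289 FPKM) and Psma7 (283 FPKM) lead. Psma8 and Psmb11, below the filter, are not drawn.

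Among the structural beta subunits, 2 of 4 tested fell and 2 did not pass. Psmb4, the beta7 subunit, had 52.1, 48.1 and 52.3 FPKM in the GPR35-positive libraries, against 64.9, 62.1 and 58.7 FPKM in the GPR35-negative libraries. The groups did not overlap, and Psmb4 fell by 0.28 on the log2 scale (SE 0.070, limma adjusted p = 0.00522; −0.14 and 0.118 under median-of-ratios scaling). Psmb2, the beta4 subunit and the most abundant of these by mean FPKM, had 141, 129 and 139 FPKM in GPR35-positive and 155, 146 and 142 FPKM in GPR35-negative libraries. Its groups did not overlap either, yet its log2 fold change of −0.12 did not pass (limma adjusted p = 0.146) and was 0.026 under median-of-ratios scaling. With a trend on GC content and length removed, Psmb2 passed as lower (−0.30, limma adjusted p = 0.00116). Psmb1, the beta6 subunit, fell by 0.24 (limma adjusted p = 0.0285), a call lost in 7 of 12 alternatives, among them those without GPR35-positive replicate 2 (0.111) or 3 (0.0636) and without GPR35-negative replicate 1 (0.0596) or 3 (0.0747), in a range of 0.0135 to 0.374. Psmb3, the beta3 subunit, had a log2 fold change of −0.10 (limma adjusted p = 0.226), which was 0.040 under median-of-ratios scaling. It too passed as lower with the trend removed (−0.17, limma adjusted p = 0.0312).

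Of the 6 ATPases of the 19S base, 1 fell and 5 did not pass, with a median log2 fold change of −0.09. Psmc4, which encodes Rpt3, had 165, 139 and 157 FPKM in the GPR35-positive libraries, against 181, 172 and 197 FPKM in the GPR35-negative libraries. The groups did not overlap, and Psmc4 fell by 0.25 on the log2 scale (SE 0.082, limma adjusted p = 0.0192); the call was lost without GPR35-positive replicate 2 (0.0766), without GPR35-negative replicate 3 (0.0512) and under median-of-ratios scaling (0.311, the highest of a range that starts at 0.00377). Psmc5, which encodes Rpt6 and led the class by mean FPKM, had 175, 143 and 163 FPKM in GPR35-positive and 193, 167 and 199 FPKM in GPR35-negative libraries. Its groups overlapped and its log2 fold change was −0.22 (limma adjusted p = 0.0569); it passed without GPR35-positive replicate 1 (0.0295) and without GPR35-negative replicate 2 (0.0279), in a range of 0.00153 to 0.524.

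Psmc1, which encodes Rpt2, the ATPase whose tail helps open the alpha ring in yeast, had 57.7, 43.5 and 48.0 FPKM in the GPR35-positive libraries, against 42.9, 38.9 and 46.0 FPKM in the GPR35-negative libraries. GPR35-positive replicate 1 was the highest, and the other libraries of that group lay close to the upper GPR35-negative ones. Its log2 fold change was 0.21 (SE 0.105, limma adjusted p = 0.0954). It passed as higher under median-of-ratios scaling (0.0194), without GPR35-positive replicate 2 (0.0301) and without GPR35-negative replicate 3 (0.0493), in a range of 0.0194 to 0.347. With a trend on GC content and length removed, Psmc1 did not pass (0.10, limma adjusted p = 0.295). Psmc2, Psmc3 and Psmc6 had log2 fold changes of −0.12 to −0.058, each positive under median-of-ratios scaling and none past the threshold in either scaling. Psmc6 passed as lower with the trend on GC content and length removed (−0.22, limma adjusted p = 0.0141), while Psmc2 and Psmc3 did not pass.

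The non-ATPase subunits of the cap held 9 of the 18 falls. Of 11 tested, 9 fell, 0 rose and 2 did not pass in limma-trend, and 10 had groups that did not overlap, all with GPR35-positive below, against 45.5% lower and 48.2% not overlapping in that direction over all genes. At an unadjusted p under 0.05 the count of rises was also 0, by limma-trend and by limma-voom. Their summed level was 843 ± 29.0 FPKM in GPR35-positive and 1025 ± 19.9 FPKM in GPR35-negative libraries (SD, n = 3 each), a ratio of 0.822, and the median log2 fold change was −0.30. Under median-of-ratios scaling 5 of the 11 fell, against 30.2% of all genes, 0 rose and the median was −0.16. For comparison, 73 of 87 tested cytosolic ribosomal protein genes fell with a median of −0.41, and 51 of 77 mitochondrial ones with a median of −0.29. Whether the class differs from other genes was not tested.

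Psmd3, which encodes Rpn3 of the lid, had the lowest fold change of all members. It had 18.3, 23.6 and 21.3 FPKM in the GPR35-positive libraries, against 34.7, 35.2 and 31.6 FPKM in the GPR35-negative libraries. The highest GPR35-positive library was far below the lowest GPR35-negative one. Psmd3 averaged 21.1 ± 2.66 FPKM and 33.9 ± 1.95 FPKM in those groups (SD, n = 3 each), and fell by 0.66 on the log2 scale (SE 0.095, limma adjusted p = 0.000173; −0.53 under median-of-ratios scaling). It lies on the forward strand of chromosome 11 (chr11:98682554-98695979, GRCm38). The ratio of its means was 0.623, beside 0.658 for the summed hepatocyte and hepatoma markers, whose part in the fall was not tested.

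Psmd6, which encodes Rpn7 of the lid, is given in full after its values were seen, as the second lowest. It had 51.2, 51.7 and 51.1 FPKM in the GPR35-positive libraries, against 74.0, 77.2 and 67.4 FPKM in the GPR35-negative libraries. The 3 GPR35-positive libraries were almost level, with no overlap. Psmd6 averaged 51.3 ± 0.329 FPKM and 72.8 ± 5.03 FPKM in those groups (SD, n = 3 each), and fell by 0.50 on the log2 scale (SE 0.070, limma adjusted p = 0.000161; −0.36 under median-of-ratios scaling). Psmd7, Psmd13, Psmd11 and Psmd14 of the lid also fell, by log2 fold changes of −0.41 to −0.19; Psmd14 encodes Rpn11, the enzyme that takes ubiquitin off the substrate. So did Psmd1 and Psmd2, the scaffolds of the base, and Psmd4, the ubiquitin receptor Rpn10, with −0.34 to −0.21.

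Of these, the falls of Psmd2, Psmd11 and Psmd14 (limma adjusted p = 0.0180, 0.0293 and 0.0436) were lost when GPR35-positive replicate 2 was left out (0.0663, 0.0901 and 0.147), likewise for GPR35-positive replicate 3 (0.0544, 0.0899 and 0.104), and under median-of-ratios scaling, where Psmd1 was lost too (0.0752). Psmd11 was also lost without GPR35-negative replicate 2 (0.0679) or 3 (0.0841), and Psmd14 without GPR35-negative replicate 1 (0.133) or 2 (0.0562). Over the alternatives the adjusted p ran from 0.0172 to 0.434 for Psmd2, from 0.00240 to 0.578 for Psmd11 and from 0.00201 to 0.536 for Psmd14. Psmd12, which encodes Rpn5 and led the class by mean FPKM, had 156, 125 and 143 FPKM in GPR35-positive and 156, 150.6 and 174 FPKM in GPR35-negative libraries. Its groups overlapped and its log2 fold change of −0.18 did not pass (limma adjusted p = 0.102), but it passed without GPR35-positive replicate 1 (0.0355, in a range of 0.0110 to 0.758). Psmd8, which encodes Rpn12, had 135, 139.8 and 135 FPKM in GPR35-positive and 143, 150.3 and 152 FPKM in GPR35-negative libraries. Its groups did not overlap, but the log2 fold change of −0.12 did not pass (limma adjusted p = 0.1003) and was 0.018 under median-of-ratios scaling.

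Of the 3 chaperones that assemble the base, 2 fell and 1 did not pass, where 45.5% of all genes tested fell. Psmd9, known as p27, had 8.44, 7.87 and 8.75 FPKM in the GPR35-positive libraries, against 11.7, 11.4 and 11.5 FPKM in the GPR35-negative libraries. The groups did not overlap, and Psmd9 fell by 0.42 on the log2 scale (SE 0.076, limma adjusted p = 0.000768); 25.5% of its exon bases overlap Gm26745 on the other strand, from which its reads cannot be told apart if counting did not use strand. Psmd5, known as S5b, had 16.7, 14.3 and 14.6 FPKM in GPR35-positive and 18.7, 20.7 and 20.7 FPKM in GPR35-negative libraries, and fell by 0.37 (limma adjusted p = 0.00274). Psmd10, known as gankyrin, had 51.1, 43.7 and 42.9 FPKM in GPR35-positive and 55.8, 46.6 and 43.6 FPKM in GPR35-negative libraries. Its groups overlapped, with a log2 fold change of −0.081 (limma adjusted p = 0.491), which was 0.058 under median-of-ratios scaling. After removal of a trend on GC content and length, Psmd10 passed as lower (−0.36, limma adjusted p = 0.00726). Psmc3ip had 6.36, 5.59 and 5.26 FPKM in GPR35-positive and 7.21, 6.36 and 7.34 FPKM in GPR35-negative libraries, and fell by 0.24 (limma adjusted p = 0.0393). That call was lost in 7 of 12 alternatives, among them those without GPR35-positive replicate 2 (0.0933) or 3 (0.162) and without GPR35-negative replicate 1 (0.0920) or 3 (0.0906), in a range of 0.00290 to 0.291.

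The members also shared a pattern between libraries of 1 group. GPR35-positive replicate 2 had the lowest value of its group for 29 of 35 members, against 33.3% of all genes tested, and GPR35-positive replicate 1 had the highest for 28, against 34.9% of all genes. GPR35-negative replicate 2 was lowest for 22 of 35, against 23.3% of all genes. The median deviation of the members from the mean of their group was 0.076, −0.078 and 0.017 on the log2 scale in the GPR35-positive libraries and 0.031, −0.038 and 0.0020 in the GPR35-negative libraries. Without GPR35-positive replicate 2 the number of members that fell was 12, against 41.8% of all genes, and it was also 12 with GPR35-positive replicate 3 left out, against 38.8%. With a trend on GC content and length removed, 27 fell and 0 rose by limma, against 47% and 23.7% of all genes, and 1 was higher at an unadjusted p under 0.05. Psma1, Psma2, Psma4, Psma6, Psmb2, Psmb3, Psmb7, Psmc5, Psmc6, Psmd10 and Psmd12 were added as lower. The falls of Psmb1 and Psmd2 and the rise of Psma3 were lost. Across the 35 members, log2 fold change and GC content of the transcript had a Pearson r of −0.38 and a Spearman rho of −0.35, a description over genes that share their libraries and are not independent replicates.

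**Figure D3:**
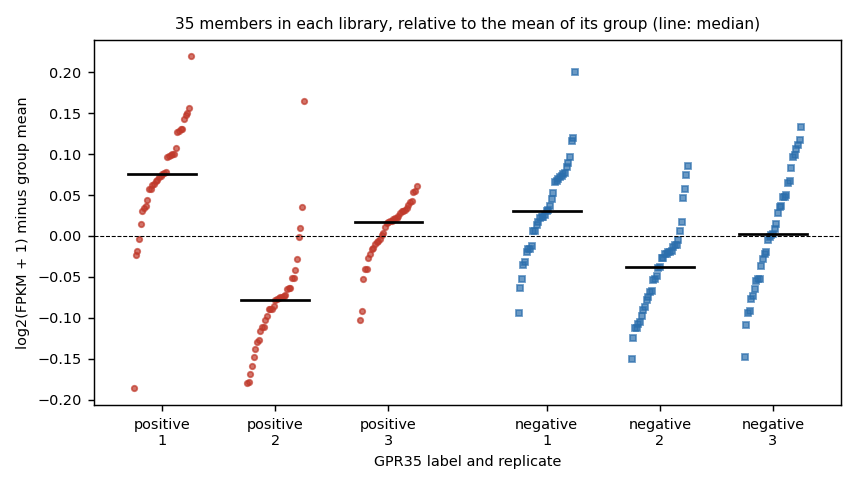
Deviation of each of the 35 tested members from the mean of its group in log2(FPKM + 1), by library, GPR35-positive libraries on the left and GPR35-negative libraries on the right, with a line at the median. GPR35-positive replicate 1 sits above its group (0.076) and replicate 2 below it (−0.078).

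Of the 3 inducible subunits that take the place of the cutting subunits, 2 rose and 1 did not pass. Psmb8, the counterpart of Psmb5, had 27.8, 29.0 and 32.3 FPKM in GPR35-positive and 27.2, 24.9 and 24.8 FPKM in GPR35-negative libraries, and was higher by a log2 fold change of 0.20 (SE 0.079, limma adjusted p = 0.0408). Its groups did not overlap, but the call was lost in 6 of 12 alternatives, among them those without GPR35-positive replicate 2 (0.0635) or 3 (0.193) and without GPR35-negative replicate 2 (0.123) or 3 (0.0854), in a range of 0.00466 to 0.193. Psmb9, the counterpart of Psmb6, had 24.7, 24.9 and 26.3 FPKM in GPR35-positive and 18.03, 19.2 and 17.5 FPKM in GPR35-negative libraries. Its groups did not overlap, and it rose by 0.45 on the log2 scale (SE 0.072, limma adjusted p = 0.000350), in all 12 alternatives. On the other strand Tap1 overlaps 5.79% of the exon bases of Psmb9, and Gm20496 overlaps 14.7% of those of Psmb8. Reads there cannot be told apart if counting did not use strand. Psmb10, the counterpart of Psmb7, had 64.7, 57.6 and 61.2 FPKM in GPR35-positive and 70.2, 61.8 and 68.5 FPKM in GPR35-negative libraries, which overlapped (log2 fold change −0.12, limma adjusted p = 0.163; 0.015 under median-of-ratios scaling).

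Each pair was also set as a ratio within a library, in which scaling plays almost no part. The log2 ratio of Psmb5 to Psmb8 was 1.381 ± 0.105 in GPR35-positive and 1.87 ± 0.0301 in GPR35-negative libraries (SD, n = 3 each), a difference of −0.49. The log2 ratio of Psmb6 to Psmb9 was 3.51 ± 0.114 in GPR35-positive and 3.86 ± 0.129 in GPR35-negative libraries (SD, n = 3 each), a difference of −0.36. All 3 GPR35-positive libraries were below all 3 GPR35-negative ones in both ratios; the exact two-sided permutation test gave p = 0.1 for each, 0.15 adjusted over 3 ratios, and 0.1 is the smallest p that 3 against 3 allows. The log2 ratio of Psmb7 to Psmb10 was −2.29 ± 0.0491 in GPR35-positive and −2.30 ± 0.00132 in GPR35-negative libraries (SD, n = 3 each; exact permutation p = 1). Psmb7 was thus the only cutting subunit of the 3 whose transcript was below that of its counterpart, in FPKM, in every library. The ratios of Psmb5 to Psmb8 and of Psmb6 to Psmb9 differed between the same groups as the marker sums. Macrophage and monocyte markers were higher, at 947 to 980.04 FPKM in GPR35-positive and 38.5 to 52.6 FPKM in GPR35-negative libraries. The neutrophil sum was also higher in GPR35-positive libraries, while the hepatoma sum was lower, as were both ratios. The part of these sums in the ratios was not tested.

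**Figure D4:**
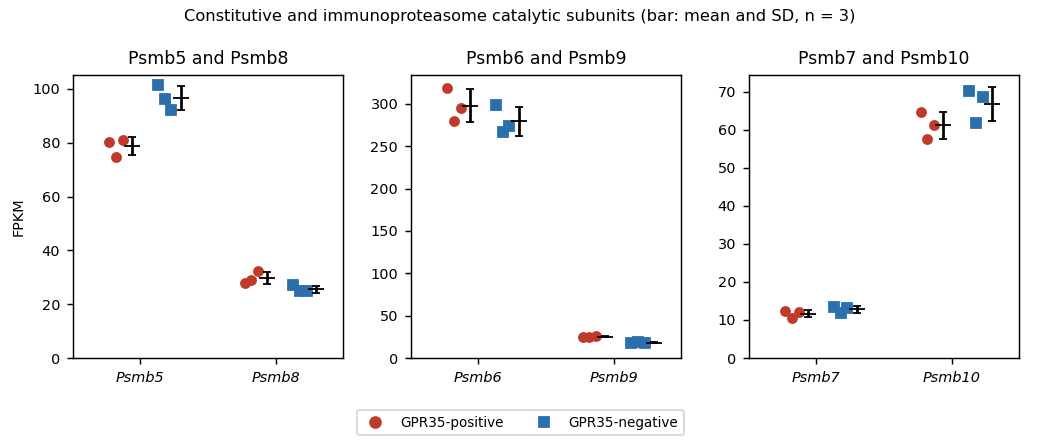
FPKM of each constitutive cutting subunit and its inducible counterpart, with 1 point per library and bars for mean and SD (n = 3), GPR35-positive left of GPR35-negative. Psmb5 is lower and Psmb9 higher in all GPR35-positive libraries, while Psmb7 and Psmb10 overlap.

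The other genes of the pathway, taken from lists of related genes, moved in both directions. Among 5 activators and inhibitors of the 20S core, 2 rose, 1 fell and 2 did not pass. Psme2, a subunit of the interferon-induced cap PA28, had 116, 98.5 and 104 FPKM in GPR35-positive and 86.4, 83.01 and 83.9 FPKM in GPR35-negative libraries, and was higher by a log2 fold change of 0.32 (limma adjusted p = 0.00319), though its reads may be shared with the similar gene Psme2b. Its partner Psme1 had a log2 fold change of −0.0036 (limma adjusted p = 0.962). Psme3, a nuclear cap, rose by 0.46 (limma adjusted p = 0.0197) with overlapping groups, and passed in 7 of 12 alternatives, at 0.0649 to 0.0752 without GPR35-positive replicate 1 or 2 and without GPR35-negative replicate 1 or 2. Psmf1, an inhibitor of the core in vitro, fell by 0.37. Of 5 chaperones that assemble the core, 4 fell and 0 rose (0 at an unadjusted p under 0.05 by limma-trend or limma-voom). Over all genes tested 45.5% fell and 23.3% rose. Psmg4 fell by 0.66, Psmg2 by 0.51, Psmg1 by 0.33 and Psmg3 by 0.30 on the log2 scale. The last pair did not pass under median-of-ratios scaling, and Psmg3 passed in 5 of 12 alternatives in all. Psmg3 was lost without GPR35-positive replicate 1 (0.142) or 3 (0.0863) and without GPR35-negative replicate 1 (0.155), in a range of 0.0226 to 0.157.

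Of 5 cap subunits and enzymes with other symbols, 3 fell and 0 rose (0 at an unadjusted p under 0.05 by limma-trend or limma-voom). The shares over all genes tested were 45.5% lower and 23.3% higher. Adrm1, a ubiquitin receptor, fell by 0.41, Usp14, a deubiquitinase, by 0.38, and Ube3c, a ubiquitin ligase bound to the particle, by 0.46 on the log2 scale. Of 6 ubiquitin and E1 genes, 2 rose and 2 fell. Ubb, a polyubiquitin gene, had 2414, 2129.8 and 2183 FPKM in GPR35-positive and 1639.6, 1607 and 1814 FPKM in GPR35-negative libraries, and rose by 0.41 (limma adjusted p = 0.00133). Uba6, an E1 enzyme, rose by 0.26, a call made in 8 of 12 alternatives, while Uba1, the main E1 enzyme, fell by 0.47 and Rps27a, a fusion of ubiquitin and a ribosomal protein, by 0.45 on the log2 scale. Of 8 shuttles and members of the p97 complex, which extracts and delivers substrates, 3 fell and 1 rose. Vcp, which encodes p97 itself, had 63.7, 65.0 and 64.3 FPKM in GPR35-positive and 90.9, 95.3 and 86.0 FPKM in GPR35-negative libraries, and fell by 0.49 on the log2 scale (limma adjusted p = 0.000109). In both groups of Vcp values the libraries were close together and far from the other group. Ubqln4, a shuttle that carries ubiquitin-tagged proteins, fell by 0.72, and Nsfl1c, a p97 cofactor, by 0.37 on the log2 scale. Ufd1, another p97 cofactor, rose by 0.20, a call made in 8 of 12 alternatives. With GPR35-positive replicate 1 left out, Uba6 (0.0608) and Ufd1 (0.0781) were lost, and with replicate 2 left out Uba6 (0.0560). Ufd1 was also lost without GPR35-positive replicate 3 (0.144). Without GPR35-negative replicate 1, Ufd1 (0.0556) was lost, and without replicate 2 Ufd1 (0.0887) and Uba6 (0.0623). Over the alternatives the adjusted p ran from 0.00415 to 0.106 for Uba6 and from 0.00452 to 0.144 for Ufd1.

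Of 4 genes that regulate the subunit genes, 1 fell, 1 rose and 2 did not pass. Nfe2l1, which encodes NRF1, had 5.11, 8.64 and 6.42 FPKM in GPR35-positive and 11.3, 13.3 and 10.5 FPKM in GPR35-negative libraries, and fell by 0.74 on the log2 scale (SE 0.152, limma adjusted p = 0.00174). Nfe2l2, which encodes its relative NRF2 of the oxidative stress response, had 89.2, 91.2 and 93.0 FPKM in GPR35-positive and 45.3, 40.0 and 38.6 FPKM in GPR35-negative libraries. Neither gene's groups overlapped, and Nfe2l2 rose by 1.13 on the log2 scale (SE 0.075, limma adjusted p = 4.2e-07). Both calls were made in all 12 alternatives. Ddi2 and Ngly1, which process the NRF1 protein, did not pass, but Ngly1 passed as lower without GPR35-negative replicate 1 (limma adjusted p = 0.0128, in a range up to 0.784 over the alternatives).

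**Figure D5:**
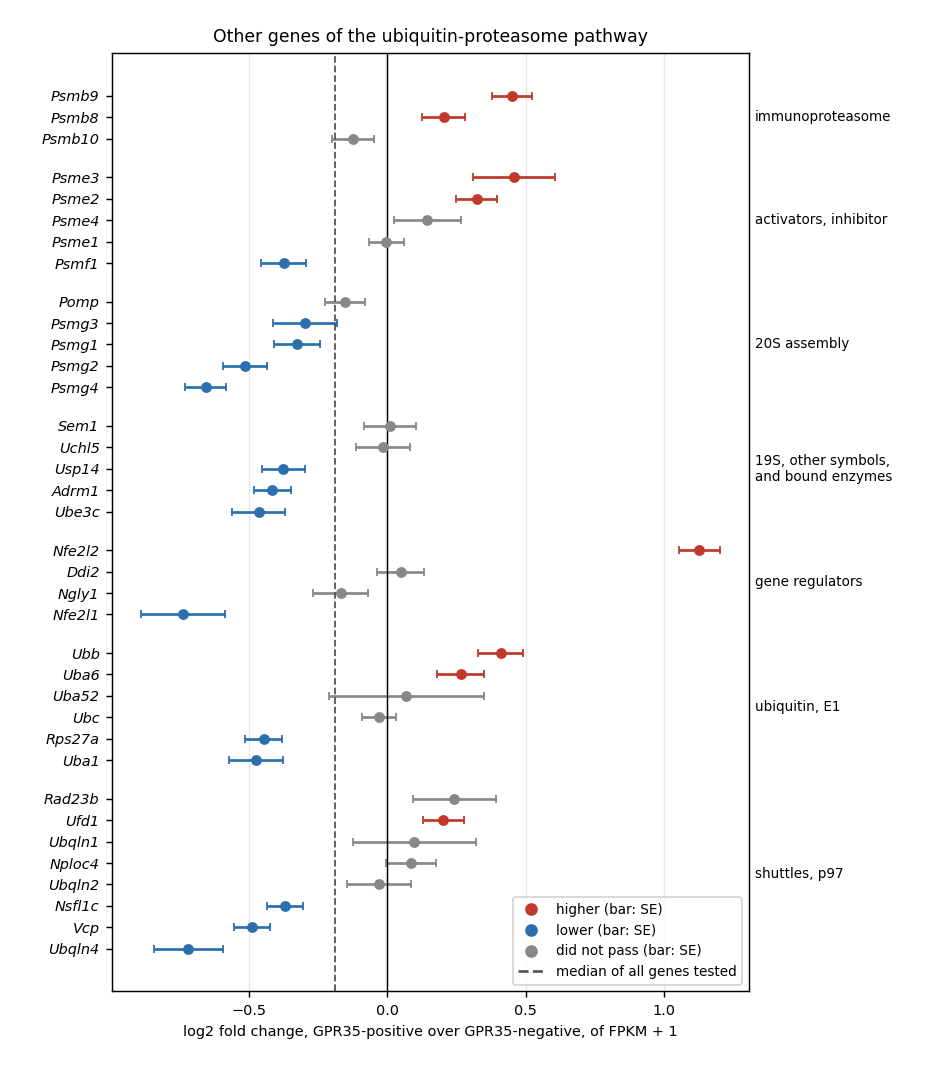
Log2 fold change of FPKM + 1 with SE bars (n = 3 against 3 libraries) for the tested genes of the related lists, with a dashed line at the median of all genes (−0.19). Nfe2l2 (1.13) lies highest and Nfe2l1 (−0.74) lowest.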

How the data were processed

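RNA labelled as that of mouse tumour neutrophils was measured in 3 GPR35-positive and 3 GPR35-negative libraries. The sample titles give group and number. Trizol extraction and the NEBNext Ultra II kit are named per the labels' protocols. The authors deposited 1 table of FPKM values, per the file headers; the annotation behind it and the use of strand are not given in the sources used here. HISAT2 2.1.0, fastp 0.22.0, DESeq 1.38.3 and HTSeq 0.9.1 appear in the submitters' processing notes with no role stated, as does GRCh38, a human build, although the gene IDs are those of mouse.

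Symbols, positions and exon lengths came from GENCODE M21 (GRCm38), which matched 21902 of 21959 IDs. With those lengths 97.55% of FPKM values above 0 were whole reads within 0.02 reads, and library totals were read from these steps, at 15742748 to 18314112. Counts recovered in this way served an alternative test only. Replicates differed by more than sampling noise (mean chi-square per gene 5.57 to 22.9), and each was kept as its own sample. The test was limma-trend (limma 3.58.1, R 4.3.3) on log2(FPKM + 1) with group as the only term, two-sided. It was Benjamini-Hochberg adjusted at 0.05 over the 10060 genes that reached 1 FPKM in 3 or more libraries. It was first tested on simulated data. That simulation changed only a small share of genes, in both directions, so it cannot speak to the scaling between libraries. Ratios of subunit pairs were tested by exact permutation over libraries. Alternatives were a pseudocount of 0.1, no filter, median-of-ratios scaling, limma-voom on the recovered reads, the replicate number as a block, leaving out each library and, added after the data were seen, removing a trend on GC content and length.

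Members and gene lists were chosen with earlier results of these data known. The rule for named genes gives in full the cutting subunits, in each other role the members with the highest and lowest fold change and the highest level, members called in the rarer direction, members below the filter, the inducible subunits and the related lists. 1 gene of the related lists is not reported here. Near-identical copies (at least 95% identity over at least 200 bases) were found for 12 of 37 members and overlapping exons for 10 of 37, and reads may be split there. For Psmb7, Psmc3ip, Psmd1 and Psmd13 the only copy was a gene that overlaps their exons, so these members stand in both counts. Python 3.11.15, numpy 2.4.6, pandas 2.3.3, scipy 1.17.1 and matplotlib 3.10.9 were used.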

Additional observations from a re-analysis of the deposited data

How the results depend on the processing

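Of the 19 members that passed, 8 passed in all 12 alternatives, all as lower. They are the 8 that fell under median-of-ratios scaling. The matching share over all genes is not given, so this count is no result about the members. The number of members that rose was 1. It was 2 without a filter, where Psma8 was added at 7 to 9 reads in GPR35-positive and 1 read in each GPR35-negative library. It was 3 under median-of-ratios scaling and 1 to 2 when each library was left out in turn. With a trend on GC content and length removed, an alternative chosen after seeing the data, it was 0. The cause was not tested. The number that fell was 18, and it was 8 under median-of-ratios scaling, 27 after removal of the trend, 15 to 19 under the other settings and 12 to 22 when each library was left out. Over all genes 17.4% to 27.1% rose and 22.1% to 47% fell under the same settings. The median log2 fold change of −0.20 was −0.060 under median-of-ratios scaling, −0.28 after removal of the trend and −0.25 to −0.15 without each library. The log2 ratio of Psmb7 to Psmb10 differed by 0.0035 between the groups, by −0.0037 with a pseudocount of 0.1 and by −0.023 to 0.026 without each library, all within the spread of the libraries; the differences between the groups in the ratios of Psmb5 to Psmb8 and of Psmb6 to Psmb9, GPR35-positive minus GPR35-negative, stayed negative in the alternatives run.

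With the replicate number as a block, 2 members rose and 19 fell, since Psmc1 (limma adjusted p = 0.0499) and Psmc5 (0.0157) passed as well. The numbers were not shown to pair the libraries: deviations from the group means correlated by −0.00, 0.40 and −0.06 between libraries of the same number.

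The tested members had 166 to 16946 reads in each library. Psmc3ip, the lowest of them by FPKM, did not pass by limma-voom on the recovered reads (adjusted p = 0.0709). Psma8 and Psmb11 were below the filter and entered only the setting without it. There Psma8 passed as higher (limma adjusted p = 0.00104) on 1 to 9 reads in each library. The design of 3 against 3 libraries limits the exact tests to p = 0.1.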
